A study of Mus musculus with 4 samples.

Results

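Butyrate is a short-chain fatty acid that gut bacteria make from fibre, and the epithelium of the colon takes it up and burns it. The carriers that bring it across the membrane are the proton-coupled monocarboxylate transporters MCT1 (Slc16a1) and MCT4 (Slc16a3) and the sodium-coupled transporter SMCT1 (Slc5a8), and basigin (Bsg) is the chaperone that MCT1 and MCT4 need to reach the surface. Inside the mitochondrion butyryl-CoA is oxidised by short-chain acyl-CoA dehydrogenase (Acads), acetyl-CoA acetyltransferase 1 (Acat1) joins and splits acetoacetyl-CoA, and 3-hydroxybutyrate dehydrogenase 1 (Bdh1) interconverts the 2 ketone bodies acetoacetate and 3-hydroxybutyrate. Ffar2 is a cell-surface receptor for short-chain fatty acids. These 8 genes, picked by symbol from the 20818 genes with exon blocks in the mm9 exon table, were followed in all 4 libraries.

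The libraries came from frozen small intestine or colon tissue of untreated C57BL/6 mice aged 9 to 10 weeks with no labelled genetic modification. The methods name jejunum and distal colon and housing under specific pathogen-free conditions. For each tissue there was 1 cDNA fragmented library (polyadenylated RNA, SMART cDNA synthesis, then fragmentation) and 1 ribosomal RNA-depleted library (SOLiD Whole Transcriptome Analysis Kit, which keeps the strand). The labels do not say which mice, or how many, went into a library, and the ribosomal RNA-depleted pair carries a label that differs from the polyadenylated RNA the paper describes for its second protocol. The paper also lists far more reads for that protocol than these libraries hold, so whether they are the same libraries is not known here. With 1 library per tissue and protocol no spread between animals could be measured, and every interval below is a 95% interval that covers counting error only.

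Uniquely placed reads numbered 22484041 in the small intestine and 24798934 in the colon cDNA fragmented library, and 2035386 and 3478387 in the ribosomal RNA-depleted libraries. Markers of the labelled tissues were held to a limit of 3-fold with 1 RPKM added to the other tissue. All 7 small intestinal epithelium genes (Sis, Lct, Fabp2, Fabp1, Apoa4, Slc5a1, Alpi) were past it over colon in both protocols. Of 6 colonic epithelium genes 4 were past that limit in the cDNA fragmented and 5 in the ribosomal RNA-depleted pair. Over all present genes 2.73% and 3.7% were past it in small intestine and 3.19% and 6.54% in colon. Car1 and Hoxd13 had 0 reads in the small intestine cDNA fragmented library. Hoxd13, with 137 reads in its colon partner, missed the limit there because 2.23 RPKM is too low to pass it. Ang4 of the colonic list went the other way by cDNA fragmentation, at 1292 RPKM in small intestine and 443 RPKM in colon. The tissues were not matched in other ways. Xist had 1752 reads and 4 Y-linked genes had 19 reads in sum in the small intestine cDNA fragmented library, against 31 and 3433 in its colon partner, while both ribosomal RNA-depleted libraries carried Y-linked reads (360 and 785) and under 10 reads of Xist. In the cDNA fragmented pair the tissue and the sex of the mice therefore cannot be told apart, which touches each ratio from that pair. The paper speaks of tissues of the same individuals, and the labels do not tie a library to a mouse. A pile of reads on Lars2 took 13.7% and 5.35% of the ribosomal RNA-depleted small intestine and colon reads. In total tissue, fewer cells of a type and less RNA per cell cannot be told apart.

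The reads that stand behind the members are 35 bases long. In 7 of the 8 genes the reads per start point were more numerous after ribosomal RNA depletion than after cDNA fragmentation in both tissues, and Acat1 was the exception (1.80 and 2.32 against 3.18 and 4.18 in small intestine and colon). The ratios below are also given with each start point counted once. A gene has a limited number of start points. Where reads per start point are many, this count can draw a ratio towards 1 also without repeat copies of a molecule. It therefore does not tell copies from high coverage. The sequences shown are 35 coding bases of a member, from the coding position where the most ribosomal RNA-depleted reads, summed over both tissues, began. Other start points held more reads in Bsg (up to 263 in small intestine and 305 in colon) and in Acads (up to 39 and 81). In the small intestine ribosomal RNA-depleted library alone they also did in Slc16a1 (up to 10), Slc5a8 (up to 18) and Acat1 (up to 12). Each sequence is read 5′ to 3′ on the gene's strand from the mm9 genome, with the base at which the reads began in capitals.
Slc16a1: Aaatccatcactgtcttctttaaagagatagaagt
Slc5a8: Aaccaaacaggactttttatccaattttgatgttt
Bsg: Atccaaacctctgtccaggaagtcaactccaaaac
Acads: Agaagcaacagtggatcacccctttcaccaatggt
Acat1: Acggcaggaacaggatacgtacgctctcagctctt
The Slc16a1 stretch lies in the second exon block (chr3:104453335-104453369, plus strand) and began 7 reads in the small intestine and 65 in the colon ribosomal RNA-depleted library, and 0 in both cDNA fragmented libraries. The Slc5a8 stretch (chr10:88388488-88388522, plus strand) began 6 and 73 ribosomal RNA-depleted reads and again 0 cDNA fragmented reads. In Bsg (chr10:79172424-79172458, plus strand) the numbers were 42 and 195 against 3 and 2. The positions were chosen by their ribosomal RNA-depleted reads, so these numbers describe the choice and test nothing. In Acads (chr5:115562808-115562842, minus strand) 2 and 25 ribosomal RNA-depleted reads began at the position, and 1 in each cDNA fragmented library. The Acat1 stretch (chr9:53399487-53399521, minus strand) was read by both protocols, with 10 and 28 ribosomal RNA-depleted and 6 and 17 cDNA fragmented reads.

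MCT1, the carrier of lactate, ketone bodies and butyrate, was higher in colon in both protocols. Slc16a1 (chr3:104442591-104462385, plus strand, 5 exon blocks) had 930 reads, or 9.35 RPKM (reads per 1000 exonic bases and 1000000 uniquely placed reads; interval 8.75 to 9.97), in the small intestine and 3186 reads, 29.0 RPKM (28.03 to 30.1), in the colon cDNA fragmented library. Ribosomal RNA depletion gave 293 reads (32.5 RPKM, 28.9 to 36.5) and 2269 reads (147 RPKM, 141 to 154). The colon was 3.11-fold (2.89 to 3.34) and 4.53-fold (4.01 to 5.14) above the small intestine. Both ratios were lower when each start point was counted once, at 2.24 (2.06 to 2.44) and 2.20 (1.84 to 2.64), with overlapping intervals. With start points counted, Slc16a1 had 3.89 reads per start point in the colon ribosomal RNA-depleted library and 1.19 to 1.89 in the other three.

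SMCT1, which carries short-chain fatty acids with sodium, was also higher in colon in both protocols. Slc5a8 (chr10:88348737-88392260, plus strand, 15 exon blocks) had 2362 reads (19.7 RPKM, 18.9 to 20.5) and 4353 reads (32.9 RPKM, 32.0 to 33.9) in small intestine and colon by cDNA fragmentation, and 306 reads (28.2 RPKM, 25.1 to 31.5) and 1991 reads (107 RPKM, 103 to 112) in the ribosomal RNA-depleted ones. The ratio of colon to small intestine was 1.67 (1.59 to 1.76) and 3.81 (3.37 to 4.31). The intervals, of counting error alone, did not overlap, and a difference between the protocols was not tested. On start points it was 1.35 and 2.33.

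MCT4, known as the exporter of lactate from glycolytic cells, was the only one of the 8 genes with the higher level in small intestine in both protocols, on few reads. Slc16a3 (chr11:120809798-120820314, plus strand, 7 exon blocks) had 52 reads (0.897 RPKM, 0.670 to 1.18) in the small intestine and 14 (0.219 RPKM, 0.120 to 0.368) in the colon cDNA fragmented library, and 57 (10.9 RPKM, 8.23 to 14.1) and 16 (1.78 RPKM, 1.02 to 2.90) in the ribosomal RNA-depleted ones. The small intestine was 4.10-fold (2.24 to 8.005) and 6.09-fold (3.45 to 11.4) above the colon. The last exon block, 44.5% of the exonic bases, overlaps the gene Csnk1d and held between 68.4% and 92.9% of the reads. In the other 6 blocks the reads were 10 against 1 and 18 against 3, a ratio of colon to small intestine of 0.0907 (0.00209 to 0.637) and 0.0975 (0.0184 to 0.334). On start points of all blocks it was 0.262 (0.134 to 0.481) and 0.180 (0.0704 to 0.409).

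Basigin was the most abundant of the transport genes in every library and differed little between the tissues. Bsg (chr10:79167103-79174724, plus strand, 8 exon blocks) had 2617 reads (66.4 RPKM, 63.9 to 69.0) and 3403 reads (78.3 RPKM, 75.7 to 81.0) in the small intestine and colon of the cDNA fragmented pair, and 1319 reads (370 RPKM, 350 to 390) and 3594 reads (590 RPKM, 571 to 609) in the ribosomal RNA-depleted ones. The ratios of 1.18 (1.12 to 1.24) and 1.59 (1.496 to 1.7) favoured colon. A single start point in the small intestine ribosomal RNA-depleted library held 263 of the 1319 reads (19.9%), and the colon library had up to 305 of 3594 (8.49%) at 1 start point. On start points the ratios were 1.02 (0.945 to 1.10) and 0.947 (0.802 to 1.12).

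Among the enzymes, short-chain acyl-CoA dehydrogenase, which carries out the first step of butyryl-CoA oxidation, showed the clearest difference. Acads (chr5:115560308-115569322, minus strand, 10 exon blocks) had 181 reads (4.38 RPKM, 3.77 to 5.07) and 1102 reads (24.2 RPKM, 22.8 to 25.7) in the cDNA fragmented and 137 reads (36.6 RPKM, 30.8 to 43.3) and 776 reads (121 RPKM, 113 to 130) in the ribosomal RNA-depleted small intestine and colon libraries. Colon was above small intestine by 5.52-fold (4.71 to 6.50) and 3.31-fold (2.76 to 4.0). On start points the folds were 4.74 and 2.45.

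Acat1, the mitochondrial thiolase, was read most of all 8 genes in the cDNA fragmented libraries and hardly differed between tissues. Acat1 (chr9:53388627-53418455, minus strand, 12 exon blocks) had 7259 reads (95.7 RPKM, 93.5 to 97.9) and 9463 reads (113 RPKM, 111 to 115) there, and 176 reads (25.6 RPKM, 22 to 29.7) and 380 reads (32.4 RPKM, 29.2 to 35.8) in the ribosomal RNA-depleted libraries. The ratios were 1.18 (1.15 to 1.22) and 1.26 (1.05 to 1.52), and on start points they were 0.946 (0.892 to 1.003) and 0.978 (0.757 to 1.27). Bdh1, the last enzyme of ketone body synthesis, pointed in opposite directions. Bdh1 (chr16:31422383-31458987, plus strand, 8 exon blocks) had 780 reads (10.4 RPKM, 9.69 to 11.2) and 1283 reads (15.5 RPKM, 14.7 to 16.4) in the cDNA fragmented libraries, a ratio of 1.49 (1.36 to 1.63). It had 112 reads (16.5 RPKM, 13.6 to 19.9) and 159 reads (13.7 RPKM, 11.7 to 16.0) in the ribosomal RNA-depleted libraries, a ratio of 0.831 (0.648 to 1.07) that lay within counting error of 1. It was below 1 beyond counting error with the median gene set to 1 (0.682, 0.532 to 0.876), with TMM factors (0.666, 0.520 to 0.856) and without the Lars2 reads (0.758, 0.591 to 0.974). The cDNA fragmented ratio was 1.16 (1.06 to 1.27) with the median gene set to 1 and 1.17 (1.07 to 1.28) with TMM factors. On start points the Bdh1 ratios were 1.41 (1.28 to 1.56) and 0.787 (0.578 to 1.08).

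The receptor had the highest ratio of the 8 genes in each protocol, though its interval overlapped that of Acads by cDNA fragmentation and that of Slc16a1 after ribosomal RNA depletion. Ffar2 (chr7:31603376-31608794, minus strand, 3 exon blocks) had 216 reads (4.19 RPKM, 3.65 to 4.79) and 1365 reads (24.0 RPKM, 22.8 to 25.3) in the cDNA fragmented libraries, and 10 reads (2.14 RPKM, 1.03 to 3.94) and 161 reads (20.2 RPKM, 17.2 to 23.6) in the ribosomal RNA-depleted libraries. The ratios were 5.73 (4.96 to 6.64) and 9.42 (4.99 to 20.02), with overlapping intervals, and on start points 4.77 (4.10 to 5.58) and 7.31 (3.57 to 17.4). With at most 1 color mismatch the ribosomal RNA-depleted ratio was 15.1 (5.74 to 56.5), on 4 small intestine reads. Ffar2 is known from enteroendocrine cells and leukocytes. The 5 enteroendocrine markers (Chga, Chgb, Gcg, Pyy, Cck) summed to 123 and 439 RPKM in the cDNA fragmented and 87.6 and 280 RPKM in the ribosomal RNA-depleted small intestine and colon libraries. Of these, 2 were past the 3-fold limit in colon in each protocol, beside 3.19% and 6.54% of all present genes. None was past it in small intestine, beside 2.73% and 3.7%. Gcg and Pyy were called higher in colon in the model with the protocol as block (limma adjusted p of 0.012 and 2.13e-05). Of all genes tested, that model called 6.99% in colon and 7.0% in small intestine. Cck was the higher in small intestine beyond counting error in both protocols (ratios of 0.247 and 0.315; limma adjusted p = 0.015). The 5 leukocyte markers (Ptprc, Cd3e, Cd79a, Itgam, Lyz2) summed to 132 and 116 RPKM and to 40.2 and 55.7 RPKM. Lyz2, with 80.9 and 98.6 RPKM and 13.0 and 35.9 RPKM, made up much of these sums, while Ptprc, Cd3e and Itgam were called higher in small intestine in that model. The part of either in the Ffar2 ratio was not tested.

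**Figure D1:**
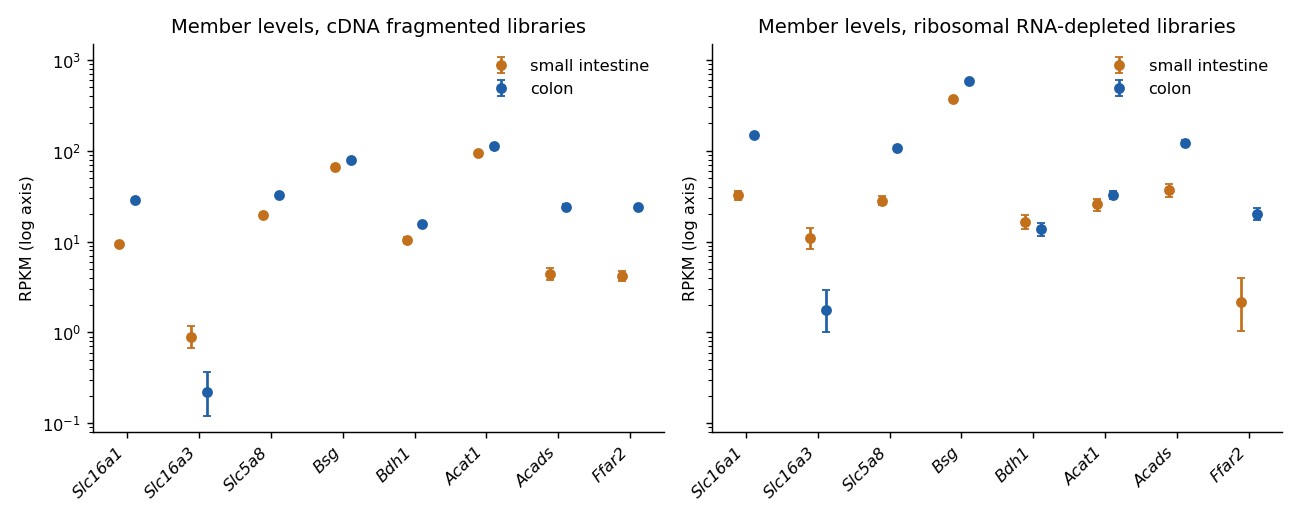
RPKM (log axis) of the 8 genes in the small intestine (orange) and colon (blue) library of each protocol, with exact Poisson intervals of the counts as bars. Slc16a3 was lower in colon than in small intestine in both panels, and the order of the tissues for Bdh1 changed between the panels.

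Read against the order of levels per length, Acat1 led in the cDNA fragmented small intestine (95.7 RPKM) and was followed by Bsg and Slc5a8, then by Bdh1 and Slc16a1 with overlapping intervals (9.69 to 11.2 and 8.75 to 9.97), Acads and Ffar2, also overlapping (3.77 to 5.07 and 3.65 to 4.79), and Slc16a3 at the bottom. In the ribosomal RNA-depleted small intestine Bsg led, and Acads (36.6 RPKM), Slc16a1 (32.5 RPKM), Slc5a8 (28.2 RPKM) and Acat1 (25.6 RPKM) lay close together, each with an interval that overlapped that of its neighbour. In the colon the intervals of Acads and Ffar2 overlapped in the cDNA fragmented library, at 24.2 and 24.0 RPKM, while the ribosomal RNA-depleted colon had 121 RPKM of Acads against 20.2 RPKM of Ffar2.

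The counts of members were set beside those of all present genes. In the cDNA fragmented libraries 7 of the 8 genes were higher in colon beyond counting error, as were 48.2% of 16468 present genes, and 1 of 8 was higher in small intestine, against 21.9%. In the ribosomal RNA-depleted libraries 6 of 8 were higher in colon, against 36.1% of 15073 present genes, and 1 in small intestine, against 18.3%. Presence asked for an RPKM above 0.01 with 2 or more start points in either library. The median gene with 10 or more reads in both libraries was itself above 1, at 1.28 and 1.22 (0.36 and 0.29 on the log2 scale), and with the median set to 1 the ratios of Bsg and Acat1 in the cDNA fragmented libraries turned to 0.921 (0.875 to 0.969) and 0.923 (0.895 to 0.952). Their ribosomal RNA-depleted ratios became 1.31 (1.23 to 1.39) and 1.04 (0.865 to 1.25). The scaling lowers all ratios of a pair alike, so a ratio this near to 1 changes side with it. In the cDNA fragmented libraries the side of 1 of both genes therefore depended on the scaling, and after ribosomal RNA depletion neither changed side. Under that scaling 5 of the 8 genes were higher in colon beyond counting error in each protocol, beside 34.1% and 26.8% of present genes, and 3 and 2 were higher in small intestine, beside 32.9% and 24.5%. On start points 5 and 4 were higher in colon, beside 42.9% and 24.2%, and 1 was higher in small intestine in each, beside 21.2% and 15.2%. Slc16a1 (2.43 and 3.72), Slc5a8 (1.31 and 3.12), Acads (4.31 and 2.72) and Ffar2 (4.48 and 7.73) stayed above 1 relative to the median gene, and Slc16a3 stayed below (0.191 and 0.135).

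**Figure D2:**
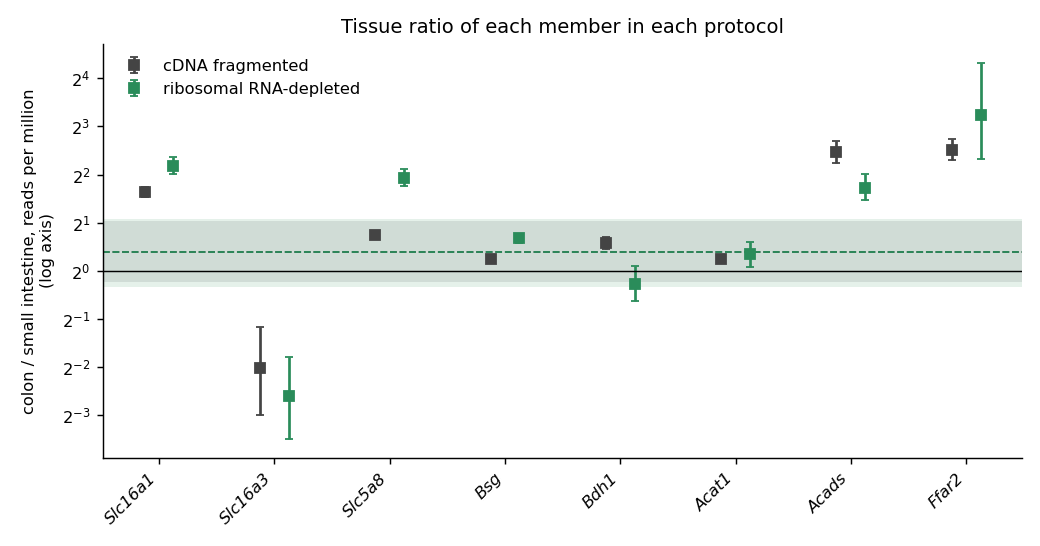
Ratio of colon to small intestine (log axis) of the 8 genes with exact intervals of the counts, in the cDNA fragmented (grey) and the ribosomal RNA-depleted (green) libraries. The shaded bands run between the lower and upper quartiles of all genes with 20 or more reads and the dashed lines are their medians, which nearly coincide. Slc16a1, Acads, Ffar2 and, in green alone, Slc5a8 lie above the bands, and Slc16a3 lies below.

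By the limit of 3-fold that the study chose for its small number of samples, applied here as the RPKM of 1 tissue over the RPKM of the other plus 1, Acads (4.49) and Ffar2 (4.63) were past it in colon in the cDNA fragmented libraries, where 3.19% of present genes were. Slc16a1 fell just short there, at 2.81. In the ribosomal RNA-depleted libraries Slc16a1 (4.40), Slc5a8 (3.68), Acads (3.23) and Ffar2 (6.42) were past the limit in colon, against 6.54% of present genes, and Slc16a3 (3.90) was past it in small intestine, against 3.7%. In the cDNA fragmented libraries none was past it in small intestine, against 2.73%. A gene under 3 RPKM in the higher tissue cannot pass this limit. Slc16a3 was such a gene there (0.897 RPKM), though 4.10-fold higher in small intestine without the added 1. Acads no longer reached the limit after ribosomal RNA depletion with the median gene set to 1 or without the Lars2 reads, and on start points Ffar2 alone reached it there in colon. The share of all genes past the limit on start points is not given here.

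Both protocols were then put in 1 linear model (limma-voom) with the protocol as block, which fits 1 common tissue ratio over both. The difference between the ratios of the protocols goes into the residual spread, which is not one between mice. Of 14162 genes tested, 6.99% were called higher in colon and 7.0% in small intestine at a Benjamini-Hochberg adjusted p under 0.05. Of the 8 genes, 3 were called higher in colon and 1 in small intestine. Ffar2 rose by 2.44 (SE 0.47) on the log2 scale, with a limma adjusted p of 0.00042. Acads rose by 1.83 (SE 0.41; limma adjusted p = 0.0022) and Slc16a1 by 1.61 (SE 0.37; limma adjusted p = 0.0027). Slc16a3 fell by 2.59 (SE 0.64; limma adjusted p = 0.0052). Slc5a8 missed the threshold at 1.02 (SE 0.38; limma adjusted p = 0.074), and passed it at 1.33 (limma adjusted p = 0.024) when libraries were scaled by uniquely placed reads alone. On start points the model gave 0.90 for Slc16a1 (limma adjusted p = 0.032) and 0.47 for Slc5a8 (limma adjusted p = 0.28). The model gave 0.17 (SE 0.36) for Bsg, 0.001 (SE 0.38) for Acat1 and -0.03 (SE 0.41) for Bdh1, with limma adjusted p of 0.82, 0.999 and 0.98, and each SE was larger than its estimate. Without the block no gene of all 14162 was called by limma (778 had an unadjusted p under 0.05, Ffar2 alone among the 8).

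For Slc16a1 and Acads the tissue difference was seen in each exon block with enough reads. For Slc16a1, the 4 exon blocks with 20 or more cDNA fragmented reads had ratios of 2.12 to 3.12, and the 3 such blocks of the ribosomal RNA-depleted libraries 4.06 to 5.43, each above 1 beyond counting error. All 8 blocks of Acads that qualified were above 1 beyond counting error in each protocol, at 3.0 to 7.17 and at 1.83 to 15.5. The 15.5 (4.09 to 131) rests on 2 small intestine and 53 colon reads. The last Acads block, with 38.5% of the bases, is where the protocols parted: colon to small intestine was 6.06 (4.78 to 7.78) by cDNA fragmentation and 1.83 (1.42 to 2.36) by ribosomal RNA depletion. Over the blocks nearest the 3' end the latter was 2.04 (1.60 to 2.63). In the small intestine ribosomal RNA-depleted library 1 start point held 39 of the 137 Acads reads (28.5%).

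Slc5a8 had ratios of 0.997 to 2.46 over its 15 blocks by cDNA fragmentation, 8 of them above 1 beyond counting error, and 2.93 to 29.3 over the 8 blocks with enough ribosomal RNA-depleted reads, all 8 beyond counting error. The 29.3 (5.02 to 1178) rests on 1 small intestine and 50 colon reads. The 3 Ffar2 blocks had ratios of 5.38 to 23.6 by cDNA fragmentation. Its first and second block, which lie upstream of the block with most of the reads, had 4 against 87 and 1 against 26 reads, ratios of 19.7 (7.43 to 74.0) and 23.6 (3.87 to 966), the first with an interval above that of the last block, at 5.38 (4.65 to 6.25), and the second with one that overlapped it. For Acat1 all 12 blocks were above 1 by cDNA fragmentation, at 1.03 to 1.93, whereas the 7 qualifying blocks of the ribosomal RNA-depleted libraries ran from 0.366 to 2.12. For Bdh1 all 7 qualifying blocks were above 1 by cDNA fragmentation, at 1.06 to 2.01, and all 3 were below 1 after ribosomal RNA depletion, at 0.644 to 0.943, with none of the 3 beyond counting error. Bsg was read almost only from block 3 on: the second block, 348 bases long, had 5, 9, 3 and 6 reads in the 4 libraries, while block 3, of 157 bases, had 217, 317, 200 and 657.

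**Figure D3:**
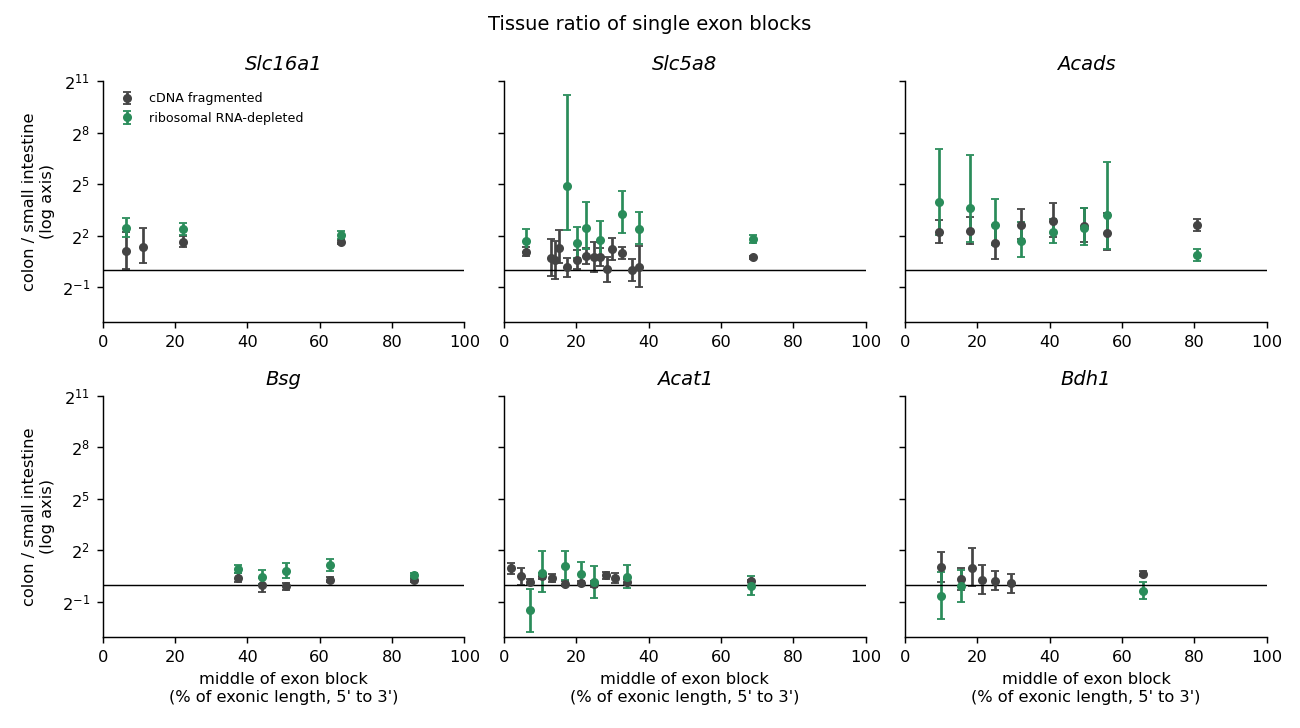
Ratio of colon to small intestine (log axis) for single exon blocks of 6 genes against the position of the block's middle along the exonic length, for blocks with 20 or more reads in the 2 libraries and at least 1 in the small intestine. Bars are exact intervals of the counts. Blocks of Slc16a1 and Acads lie above 1 in both protocols, and those of Bdh1 lie on either side of 1.

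The strand could be read in the ribosomal RNA-depleted libraries. Of the reads on Slc16a1, Bsg, Acat1, Acads and Ffar2, 100% lay on the gene's strand in both tissues, from 10 reads for Ffar2 in small intestine (interval 72.2% to 100%) to 3594 for Bsg in colon (99.9% to 100%). Slc5a8 had 1 read on the other strand in each tissue and Bdh1 1 in colon. Slc16a3 had 3 of 57 in small intestine and 0 of 16 in colon. The cDNA fragmented libraries do not keep the strand, and there between 42.7% and 64.3% of the reads of a gene lay on its own.

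The protocols gave different levels for the same tissue, and the members fell at both ends. Slc16a3 had 12.1 times as many RPKM in the ribosomal RNA-depleted as in the cDNA fragmented small intestine library and 8.15 times as many in colon. Acads had 8.36 and 5.02 times as many and Bsg 5.57 and 7.53 times as many. These are the 3 members richest in G and C, at 58.8%, 59.7% and 58.9% of their exonic bases, above 93.3%, 95.6% and 93.7% of the 10016 genes with 10 or more reads in all libraries. Acat1, with 45.2%, had only 0.268 and 0.286 times as many. Slc16a1 has one of the lowest GC contents among the 8, 42.9%, and still had 3.48 and 5.08 times as many. Over the genes, the 2504 richest in GC had median ratios of 3.12 in small intestine and 2.20 in colon, and the 2504 poorest 1.13 and 1.60. The tissue ratio moved with GC as well: from the cDNA fragmented to the ribosomal RNA-depleted libraries the log2 ratio of colon to small intestine rose by a median of 0.49 in the poorest 2504 and fell by 0.45 in the richest. Slc5a8 and Slc16a1, among the poorest, had the higher ratio in the ribosomal RNA-depleted pair and Acads and Slc16a3, among the richest, the lower, while Bsg, also among the richest, had the higher. The intervals of the Slc16a3 ratios overlapped between the protocols, while those of Slc5a8, Slc16a1, Acads and Bsg did not. On start points the Slc16a1 ratios were 2.24 and 2.20. The part of GC in the tissue ratios was not tested.

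**Figure D4:**
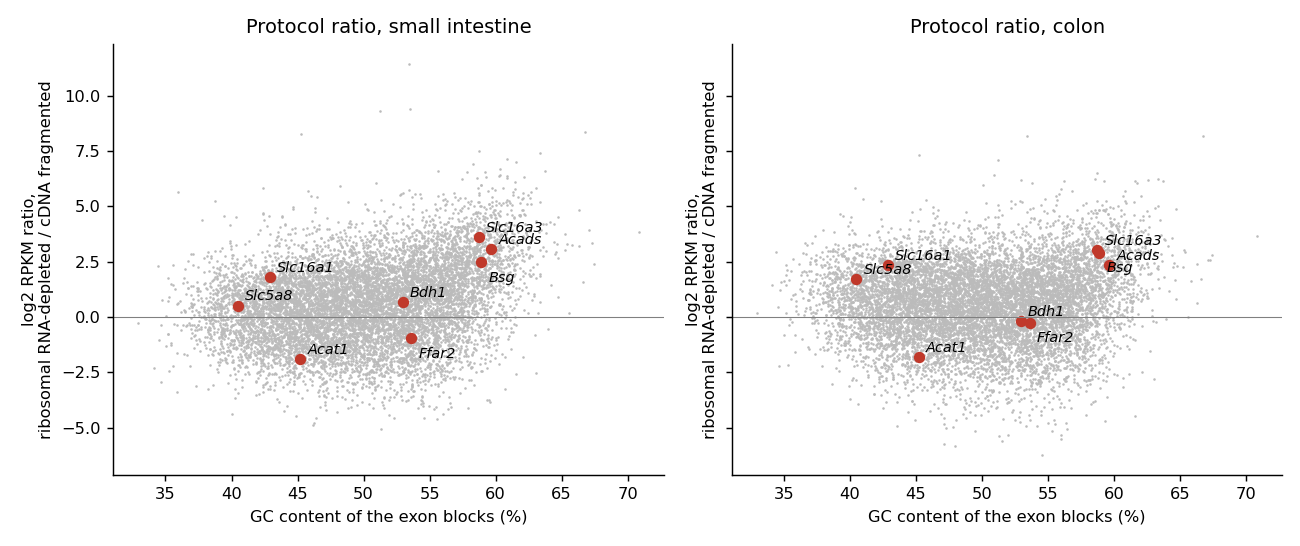
Log2 ratio of RPKM in the ribosomal RNA-depleted over the cDNA fragmented library of each tissue against the GC content of the exon blocks, for 10016 genes (grey) and the 8 members (red). Slc16a3, Acads and Bsg lie at the right and high, and Acat1 lies low in both tissues.

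The other genes of transport and ketone body metabolism were counted as lists, 50 genes in all, to place the 8 among their relatives. Of 15 other monocarboxylate transporters and chaperones, 3 were past the 3-fold limit in small intestine in both protocols and 1, Slc16a7, in colon in the ribosomal RNA-depleted libraries, beside 2.73% and 3.7% of all present genes past it in small intestine and 3.19% and 6.54% in colon. In the blocked model 3 of the 13 tested were called in small intestine and 1 in colon, beside 7.0% and 6.99% of all genes tested. The median log2 ratio of the list was -0.03 by cDNA fragmentation and 0.45 after ribosomal RNA depletion, against 0.41 and 0.40 over all genes with 10 reads. Slc5a12, the low-affinity sodium-coupled lactate carrier of the proximal gut and kidney, had 5558 reads in small intestine and 0 in colon by cDNA fragmentation, at least 2043-fold higher in small intestine if 3 reads are taken as the floor (the lower bound of the exact interval was 1661-fold), and 980 and 32 reads in the ribosomal RNA-depleted libraries. The ratios of the 2 sodium-coupled carriers thus lay on opposite sides of 1 in both protocols. Slc16a10, an aromatic amino acid transporter, had 2832 and 104 reads and 834 and 65 reads, and fell by 4.98 on the log2 scale from small intestine to colon (limma adjusted p = 1.06e-09). Slc16a6 had 822 and 181 and then 225 and 62 reads, and fell by 2.73 (limma adjusted p = 3.02e-05). Slc16a9, named after its values were seen, rose by 1.89 (limma adjusted p = 0.043), on 17 and 318 and on 65 and 150 reads. Its ratio of colon to small intestine was 17.0 (10.4 to 29.5) by cDNA fragmentation and only 1.35 (1.003 to 1.84) after ribosomal RNA depletion. Embigin (Emb), the chaperone of MCT2, had 177 and 112 reads by cDNA fragmentation and 12 and 38 after ribosomal RNA depletion, with ratios of 0.574 (0.449 to 0.731) and 1.85 (0.948 to 3.9). Slc16a5 and Nptn, the other two with most reads, had cDNA fragmented ratios of 0.980 (0.930 to 1.03) and 0.927 (0.880 to 0.976). After ribosomal RNA depletion these were 0.769 (0.650 to 0.909) and 2.42 (2.06 to 2.85), so that Nptn lay on the other side of 1.

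Of 6 other genes of ketone body metabolism, 1 was past the limit in colon by cDNA fragmentation and none after ribosomal RNA depletion, beside 3.19% and 6.54% of all present genes. In the blocked model 1 of 4 tested was called in colon, beside 6.99% of all genes. The median log2 ratio of the list was 0.39 and 0.98, against 0.41 and 0.40 over all genes with 10 reads. Aacs, which activates acetoacetate in the cytosol, had 231 and 1073 and then 123 and 598 reads in small intestine and colon, and rose by 1.53 on the log2 scale (limma adjusted p = 0.0099). Oxct1, the enzyme that starts the use of ketone bodies, had 3231 and 4544 reads and 180 and 608 reads, with ratios of 1.28 (1.22 to 1.33) and 1.98 (1.67 to 2.35) and a model estimate of 0.34 (limma adjusted p = 0.63). Acat2 had ratios of 1.35 (1.25 to 1.46) and 0.251 (0.101 to 0.571). Bdh2 had 65 and 79 reads by cDNA fragmentation, a ratio of 1.10 (0.784 to 1.55), and 0 and 2 after ribosomal RNA depletion.

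Of 8 acyl-CoA synthetases for short and medium chains, 1 was past the limit in colon by cDNA fragmentation and 2 after ribosomal RNA depletion, and 1 in small intestine in both, beside 3.19% and 6.54% of all present genes in colon and 2.73% and 3.7% in small intestine. In the blocked model 2 of the 4 tested were called in colon and 1 in small intestine, beside 6.99% and 7.0% of all genes. Acsm3 had 348 and 4361 and then 6 and 285 reads and rose by 3.54 on the log2 scale (limma adjusted p = 2.08e-06). Acss2, which makes acetyl-CoA from acetate in the cytosol, rose by 1.82 (limma adjusted p = 0.0022). Acsm5 fell by 6.65 (limma adjusted p = 1.37e-06), on 184 and 2 reads by cDNA fragmentation and 24 and 0 after ribosomal RNA depletion, the latter at least 13.7-fold higher in small intestine with 3 reads as the floor (the lower bound of the exact interval was 10.3-fold). Acss1, the mitochondrial acetate enzyme, had ratios of 2.37 (2.19 to 2.56) and 2.61 (2.17 to 3.15) and missed the threshold (limma adjusted p = 0.078).

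The next list holds other acyl-CoA dehydrogenases, later steps of beta-oxidation and the electron carriers Etfa, Etfb and Etfdh. Of these 15 genes of mitochondrial acyl-CoA oxidation none was past the limit by cDNA fragmentation, 1 was in colon after ribosomal RNA depletion (Acad8, at 25 and 176 reads), and none of 15 was called in the blocked model. Over all genes 3.19% and 6.54% were past the limit in colon and 6.99% were called there, so that counts this low in 15 genes are near the background. The median log2 ratio of the list was 0.26 and 0.72. Medium-chain acyl-CoA dehydrogenase (Acadm) had ratios of 1.20 (1.16 to 1.24) and 1.65 (1.35 to 2.03). Hadh had 0.757 (0.735 to 0.780) and 0.703 (0.659 to 0.750), below 1 in both protocols. Hadhb, with 0.914 (0.888 to 0.942) and 2.18 (1.97 to 2.41), and Acaa2, with 1.20 (1.16 to 1.24) and 1.66 (1.37 to 2.01), were the remaining ones among the 4 most read. Whether Acads differed from these genes was not tested.

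Among 6 other receptors, 1, Ffar4, was past the limit in colon in both protocols, beside 3.19% and 6.54% of all present genes. The other receptors of the list were under 3 RPKM in every library, at most 2.57 RPKM (Hcar1, small intestine, cDNA fragmented). They could not pass the limit, so this count says nothing of their ratios. Without the added 1, the cDNA fragmented ratios were 52.6 (17.7 to 257) for Olfr78 and 9.97 (5.22 to 21.4) for Hcar2, while that of Hcar1 was below 1. The blocked model called 3 of the 5 tested in colon, beside 6.99% of all genes. Ffar4, the receptor for long-chain fatty acids, had 57 and 571 and then 8 and 90 reads and rose by 2.74 (limma adjusted p = 0.00049). Olfr78, an olfactory receptor that binds acetate and propionate, rose by 4.91 (limma adjusted p = 6.87e-05) on 3 and 174 and on 0 and 22 reads. Hcar2, a receptor for 3-hydroxybutyrate and butyrate, rose by 2.29 (limma adjusted p = 0.046) on 10 and 110 and on 2 and 7 reads, and its ribosomal RNA-depleted ratio of 2.05 (0.390 to 20.2) was within counting error of 1. Ffar3, the other short-chain fatty acid receptor, had 19 and 67 and then 3 and 8 reads (ratios of 3.20, 1.90 to 5.64, and 1.56, 0.375 to 9.13; limma adjusted p = 0.39). Hcar1, the lactate receptor, had 190 and 167 reads by cDNA fragmentation, a ratio of 0.797 (0.643 to 0.986), and 5 and 15 after ribosomal RNA depletion, a ratio of 1.76 (0.606 to 6.17) within counting error of 1.

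**Figure D5:**
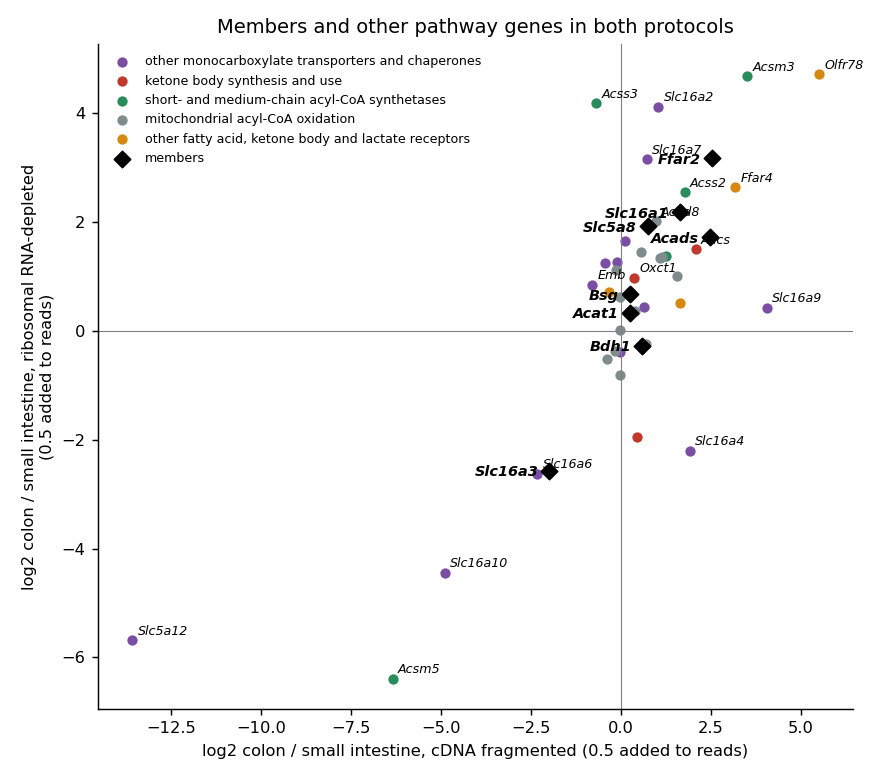
Log2 ratio of colon to small intestine in the ribosomal RNA-depleted libraries against that in the cDNA fragmented libraries for the 8 members (black diamonds) and the genes of the 5 lists (coloured points) with 10 or more reads in each protocol, 0.5 added to every read count. Acsm3 and Olfr78 lie at the upper right, Slc5a12 and Acsm5 at the lower left.

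Other tissue components differed along with the tissues. All 5 smooth muscle markers (Myh11, Acta2, Des, Tagln, Cnn1) were called higher in colon in the blocked model. Of all genes tested, that model called 6.99% in colon and 7.0% in small intestine. The summed levels of the 5 markers were 194 to 224 RPKM in small intestine and 931 to 1745 RPKM in colon. The 6 general epithelium markers (Epcam, Cdh1, Vil1, Krt8, Krt19, Krt20) summed to 9404 and 4649 RPKM by cDNA fragmentation and to 4093 and 5907 RPKM after ribosomal RNA depletion. Krt20 alone had 7525 and 2503 RPKM of the former, and the members went both ways, with Krt19 called in colon and Vil1 and Krt20 in small intestine. The 6 pancreatic acinar markers (Cela1, Cpa1, Ctrb1, Pnlip, Prss2, Cel) summed to 18.8 and 782 RPKM in the cDNA fragmented and 2292 and 295 RPKM in the ribosomal RNA-depleted small intestine and colon libraries. Cela1 alone had 18.3 and 544 and then 496 and 291 RPKM of these. In the ribosomal RNA-depleted colon library Cpa1, Ctrb1, Pnlip, Prss2 and Cel had only 0.364, 1.62, 0.580, 0.348 and 1.41 RPKM. Cpa1, Pnlip and Prss2 were at 0 reads in the small intestine cDNA fragmented library. The 4 adipocyte markers (Adipoq, Plin1, Cidec, Lep) summed to 15.8 to 39.9 RPKM in small intestine and 28.4 to 65.4 RPKM in colon. Adipoq alone was called higher in colon, at 7.76 and 36.9 RPKM by cDNA fragmentation. Cidec had a ratio below 1 there (0.860, 0.793 to 0.933). The 5 neutrophil markers (S100a8, S100a9, Csf3r, Cxcr2, Retnlg) stayed under 10 RPKM in sum in each library, and the 2 erythroid markers found of 3 (Hba-a1, Alas2) under 3 RPKM. The part of these components in the ratios of the members was not tested.

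The genes whose levels followed a member most closely were sought by the distance of centred log2(RPKM + 1) over the 4 libraries among 12403 genes with 100 or more reads in sum. For Slc16a1 these were Cacnb3 (distance 0.119), Prkaa2 (0.137) and Gabarapl1 (0.183). For Slc5a8 they were Rab27b (0.141), 2810453I06Rik (0.141) and Clip3 (0.147). For Ffar2 they were Ndrg2 (0.0522), which had 16.3, 79.3, 9.57 and 69.8 RPKM in the small intestine and colon cDNA fragmented and ribosomal RNA-depleted libraries, Fah (0.258) and Gpr20 (0.325). Over 4 libraries such likeness is a description only.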

How the data were processed

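The authors matched 35-color SOLiD reads with the corona pipeline to the exon blocks and exon junctions of the mm9 RefSeq genes, allowing up to 3 color mismatches, and deposited placements, exon tables and reports. These deposited columns hold positions, names and matching reports, not counts. Uniquely placed reads were counted here on 199684 exon blocks of 20818 genes (20647 named from GENCODE M1, same build), with 3 bases of tolerance at block borders. Total reads numbered 77504263 and 83302412 (cDNA fragmented) and 36419942 and 37466674 (ribosomal RNA-depleted). Junction placements, 0.754% to 0.822% of the uniquely placed reads, were left out: at most 1.99% of them had 12 bases on each side of the joint.

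RPKM has an exact Poisson interval, a tissue ratio an exact conditional binomial interval and a strand share a Wilson interval. PCR reads without molecular identifiers are not independent molecules, so these cover counting error only. The model with protocol as block was fitted with limma 3.58.1 (voom, R 4.3.3) with TMM factors, on genes with the equivalent of 10 reads in the median library in at least 2 libraries and 15 in sum. It has 1 residual degree of freedom and borrows its variance across genes. A quasi-likelihood count test had been planned. Count tests were kept for deposited counts, and since the counts here were made from placements, limma-voom was run in its place. In simulated data of 14162 genes with 200 changed 4-fold, 196 were recovered, with 14 other genes called. The simulated dispersion was set to 0.05, so these numbers do not tell how the model does at the spread of these libraries.

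The 8 genes, the 5 pathway lists and the 10 marker lists were chosen with earlier results of these data known. From each list the text names genes past the 3-fold limit in either protocol, up to 4 with most reads, and Hcar2, Ffar3, Oxct1 and Emb. Slc16a9 was named after its values were seen. Some genes of the lists are not reported here. Sequences came from the mm9 genome. Alternatives were another scaling, penalty, fold, strand, mismatch limit, start points, unshared or 3' blocks, filter and block.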

Additional observations from a re-analysis of the deposited data

Results flagged for a closer look

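Bdh1 lay on opposite sides of 1 in the 2 protocols, with a ratio of colon to small intestine of 1.49 in the cDNA fragmented and 0.831 in the ribosomal RNA-depleted libraries, the latter within counting error of 1. With the median gene set to 1 these ratios were 1.16 and 0.682, the latter then below 1 beyond counting error. The difference between the protocols was not tested, as each holds 1 library per tissue. In 5 other genes of the pathway lists the ratios lay on opposite sides of 1 beyond counting error in both protocols. The difference was not tested there either. The share of all genes that do so is not given here, so this count is not read as a trait of the lists. These ratios rest on scaling by uniquely placed reads, under which the median gene was at 1.28 and 1.22. Slc16a4 had ratios of 4.23 (3 and 14 reads in small intestine and colon) and 0.207 (17 and 6 reads). Slc16a12 had 0.734 and 2.46, Nptn 0.927 and 2.42, Hadhb 0.914 and 2.18, and Acat2 1.35 and 0.251, in the cDNA fragmented and ribosomal RNA-depleted libraries respectively.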

How the results depend on the processing

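Slc16a1, Slc5a8, Acads and Ffar2 kept a ratio above 1, and Slc16a3 one below 1, under each alternative run for the ratios. Acat1 changed its side of 1 in the cDNA fragmented libraries with start points (0.946), median-of-ratios factors (0.923) and TMM factors (0.928), and after ribosomal RNA depletion with start points (0.978) and with the blocks nearest the 3' end (0.962). Bsg did so in the cDNA fragmented libraries with median-of-ratios (0.921) and TMM factors (0.925), and after ribosomal RNA depletion with start points (0.947). The 2 sets of factors shift all cDNA fragmented ratios alike, by -0.356 and -0.349 on the log2 scale. The changes of side with them follow from that shift and are no trait of these genes. With either set of factors the number of the 8 genes higher in small intestine beyond counting error was 3 in place of 1 in the cDNA fragmented and 2 in place of 1 in the ribosomal RNA-depleted libraries, and it was 2 in the latter without the Lars2 reads, with Bdh1 the added gene of the ribosomal RNA-depleted libraries in each case. With median-of-ratios factors 32.9% and 24.5% of present genes were higher in small intestine. The shares for TMM factors and without the Lars2 reads are not given here. Leaving out the Lars2 reads was an alternative added after the data were seen. On start points 1 of the 8 genes, in place of 4, was past the 3-fold limit in colon after ribosomal RNA depletion. The share of all genes past it on start points is not given here, so this drop is not read as one of the members.

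Over all genes, 526 and 449 were past that limit in colon and in small intestine by cDNA fragmentation and 986 and 558 after ribosomal RNA depletion. A penalty of 0.1 RPKM gave 1351, 693, 2444 and 1065, and a limit of 2-fold 1316, 738, 2336 and 1050. At 2-fold the pathway lists, of 50 genes, held 9 and 13 past the limit in colon, in place of 3 and 5. Over all present genes 1316 of 16468 and 2336 of 15073 were past it in colon, in place of 526 and 986. The lists thus rose along with all genes, and the rise is not read as one of the lists. Their numbers in small intestine at 2-fold are not given here. In the blocked model 611 genes, in place of 990, were called in colon without the filter on low counts. With tissue only and no block, 0 genes and 0 of the 8 were called in either direction. The causes were not tested. The planned DESeq2 alternatives were not run, by the choice to keep count tests for deposited counts. The blocked model pairs the tissues within a protocol. No paired analysis was possible by animal, because the labels carry no replicate numbers. Depth limits Slc16a3 in each library and Ffar2 in the small intestine ribosomal RNA-depleted library, and 1 library per tissue and protocol leaves the spread between mice unknown.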

Other observations

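Genes that mark 1 tissue were also read at a low level in the ribosomal RNA-depleted library of the other. Car1 had 68 reads in the small intestine and 25678 in the colon ribosomal RNA-depleted library, against 0 and 1619874 by cDNA fragmentation. Sis had 12905 and 257 reads in the small intestine and colon ribosomal RNA-depleted libraries and 67240 and 195 by cDNA fragmentation. Among the carriers, the 32 colon reads of Slc5a12 lie in the same library.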
